A study of Mus musculus with 24 samples.

Results

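Phase II conjugation genes were taken as every entry of the kidney expression table whose symbol marks a glutathione S-transferase (GST), a microsomal one (MGST), a UDP-glycosyltransferase (UGT) or a sulfotransferase (SULT). The symbol rule matched 55 of 19426 entries, and 39 of these averaged 0.5 FPKM or more across the 24 libraries (FPKM, fragments mapped per kilobase of transcript relative to the size of the library, is a level per length). The 39 members were 19 of 21 GST entries, 2 of 3 MGST entries, 12 of 20 UGT entries and 6 of 11 SULT entries. Just inside the limit were *Sult2b1* at a mean of 0.659 FPKM and *Ugt2b37* at 0.578, and just outside it *Ugt2b5* at 0.420 and *Ugt2a3* at 0.325. The other 14 entries below the limit lay between 0.0158 and 0.242 FPKM and are not described further.

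Phase II enzymes attach a polar group to drugs, hormones, bile pigments and products of lipid oxidation. GSTs use glutathione, UGTs use a sugar carried by UDP, most often glucuronic acid, and SULTs use sulfate carried by PAPS, and the conjugate is then exported into urine or bile. In the kidney these enzymes sit largely in the proximal tubule, where organic anions are taken up from blood and secreted.

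The libraries came from whole kidneys of C57BL6 mice, 13 weeks old by the study's methods, that had received vehicle, PTH (hPTH(1-34), a stretch of parathyroid hormone that activates its receptor) or YKL-05-099, which inhibits the salt-inducible kinases (SIKs) and, by the paper's account, other kinases too. Each group held 8 libraries. PTH mice were killed 1 hour after the dose and YKL-05-099 mice 3 hours after it, and the time after vehicle is not given. In the comparison of the agents with each other the agent and the time cannot be told apart. Since the time after vehicle is unknown, the same may hold for the comparisons with vehicle. By the paper PTH was injected under the skin and YKL-05-099 into the abdomen, while the series text gives the abdomen for all agents. No allele or transgene is named. As far as the sources say, the mice thus differed in what was injected, when they were killed and, by the paper, the route. The part of the route in any comparison was not tested. Against the series text, which calls the mice male, all 24 libraries held *Xist*, transcribed from a silenced X, at levels of 76.3 to 114 FPKM, and Y-linked genes reached at most 0.1 FPKM. It also gives another number of animals per treatment than the 8 libraries here, so p-values measure the spread between libraries, which may be technical in part. Depth, estimated from the spacing of low values, was about 5840000 to 7760000 fragments (median 6820000). Markers of the proximal tubule, thick ascending limb, distal tubule, collecting duct and glomerulus were all measured. In whole tissue, fewer cells of a type and less RNA per cell cannot be told apart.

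Many members, though not all, lie in clusters of near copies, and for those this sets how far a value belongs to 1 gene. The UGT1A enzymes are the extreme case, since each first exon on chromosome 1 is spliced onto the same downstream exons. The 30 bases across that junction are shown because they mark where all 6 transcripts become the same; lower case marks the bases before that point, which some of these genes also share, and capitals the first 15 bases of the shared exon, which starts at position 88215044 (GRCm38), 5′ to 3′ on the plus strand.
Ugt1a1: aagcccctatcccagGAATTTGAAGCCTAT
Ugt1a2: aagcccctctctcagGAATTTGAAGCCTAT
Ugt1a6a: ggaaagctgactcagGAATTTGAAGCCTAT
Ugt1a6b: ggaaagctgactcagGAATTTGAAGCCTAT
Ugt1a7c: aagccactttccaagGAATTTGAAGCCTAT
Ugt1a10: aagccactttccaagGAATTTGAAGCCTAT
The capitals are the same in all 6, *Ugt1a6a* and *Ugt1a6b* are also the same before the junction, and so are *Ugt1a7c* and *Ugt1a10*. Bases before the shared exon number 900 in *Ugt1a2* and 986 in *Ugt1a6b*, against 1311 and 1317 from its first base to the end of the transcript.

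Cut into windows of 50 bases, all 2248 windows of the *Ugt1a6a* transcript were also found in transcripts annotated to other genes. The share was 80.7% for *Ugt1a6b*, 80.2% for *Ugt1a1*, 69.8% for *Ugt1a10*, 63.7% for *Ugt1a2*, 89.7% for *Gsta1*, 64.2% for *Gsta2*, 72.6% for *Gstp2* and 62.3% for *Gstp1*. It was 9.38% for *Ugt3a1*, 9.39% for *Ugt3a2* and 0.723% for *Sult1c2*. No window was shared for *Gsta3*, *Gstt1*, *Gstt2*, *Gstm4* or *Mgst3*. Values of single UGT1A genes, of *Gsta1* and *Gsta2* and of *Gstp1* and *Gstp2* are therefore uncertain in how fragments were divided between copies.

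The mouse kidney expressed these families unevenly. Together the 39 members held 0.863% to 0.967% of all FPKM with vehicle. Among GSTs, *Gsta2*, an alpha-class enzyme that conjugates and reduces lipid peroxides, was at 1077 ± 89.1 FPKM (SD, n = 8) and made up 41.1% of the GST sum. *Gstm1* of the mu class followed at 304 ± 40.2 FPKM, then *Gsta4*, which removes 4-hydroxynonenal, at 220 ± 37.3. *Gstz1*, the isomerase of tyrosine breakdown, was at 186 ± 15.7 FPKM and *Gstm5* at 144 ± 11.9. *Gsta2* stood clear of every other member in all vehicle libraries (lowest 1003 FPKM), whereas each of the next 4 GSTs overlapped its neighbour in that order.

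Of the microsomal enzymes, *Mgst3* was at 87.9 ± 11.6 FPKM and *Mgst1* at 65.4 ± 5.28 FPKM, and the lowest *Mgst3* library (72.7) lay above the highest *Mgst1* library (71.7). Among UGTs, *Ugt3a2* (378 ± 38.8 FPKM) and *Ugt1a2* (320 ± 52.0) led and overlapped each other. The UGT3A enzymes are known in human to use sugars other than glucuronic acid. *Ugt1a7c* at 114.1 ± 10.99, *Ugt3a1* at 91.7 ± 19.7 and *Ugt2b38* at 68.4 ± 9.30 FPKM came next. *Sult1d1*, a mouse enzyme that sulfates catecholamines, was at 520 ± 92.6 FPKM and made up 79.9% of the SULT sum. *Sult1c2* was at 90.8 ± 3.58, the phenol enzyme *Sult1a1* at 35.4 ± 4.42, *Sult1b1*, which acts on thyroid hormone, at 3.60 ± 0.372, and *Sult5a1* at 0.744 ± 0.312 FPKM, so these 4 SULTs did not overlap one another. The plot of vehicle levels shows how few genes carry each family.

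**Figure D1:**
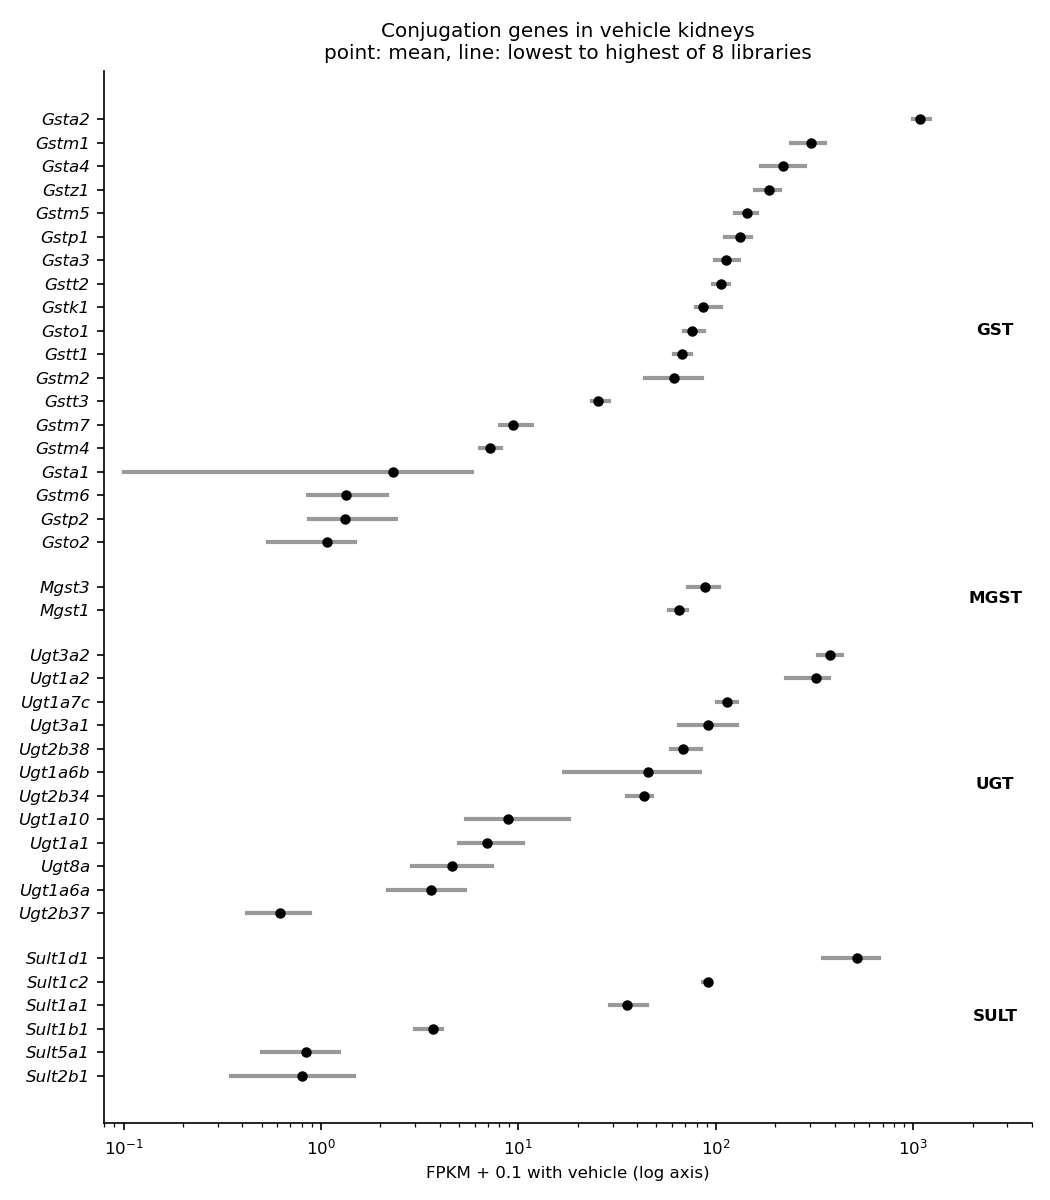
Mean FPKM + 0.1 of each of the 39 conjugation genes in vehicle kidneys (point) with the lowest and highest of the 8 libraries (line), on a log axis, grouped by family. *Gsta2* at 1077, *Sult1d1* at 520 and *Ugt3a2* at 378 FPKM lead their families, and the *Gsta1* line reaches 0 FPKM.

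Few of these genes passed the test with either agent, and the changes of those that did were small. Whether their share differed from that of all genes was not tested. Calls were made in limma over all 13991 genes averaging 0.5 FPKM or more, at an adjusted p under 0.05. With PTH, 0 of 39 members rose and 3 fell, against 6.00% of all genes that rose and 11.1% that fell. With YKL-05-099, 5 of 39 rose and 1 fell, against 6.26% and 11.5% of all genes. The median log2 fold change of the members was -0.07 with PTH and 0.03 with YKL-05-099, where that of all genes was -0.05 in both. At an unadjusted p below 0.05 in limma, 2 members were higher and 6 lower with PTH, and 8 higher and 3 lower with YKL-05-099. In either direction that is 8 and 11 of 39 members, against 4150 and 4425 of all 13991 genes. The split of all genes depended on scaling: with PTH 839 rose and 1558 fell as deposited, 1106 and 1103 after median-ratio scaling, and 1051 and 1332 after quantile normalization. With YKL-05-099 the splits were 876 and 1605, 1151 and 1172, and 1156 and 1394.

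**Figure D2:**
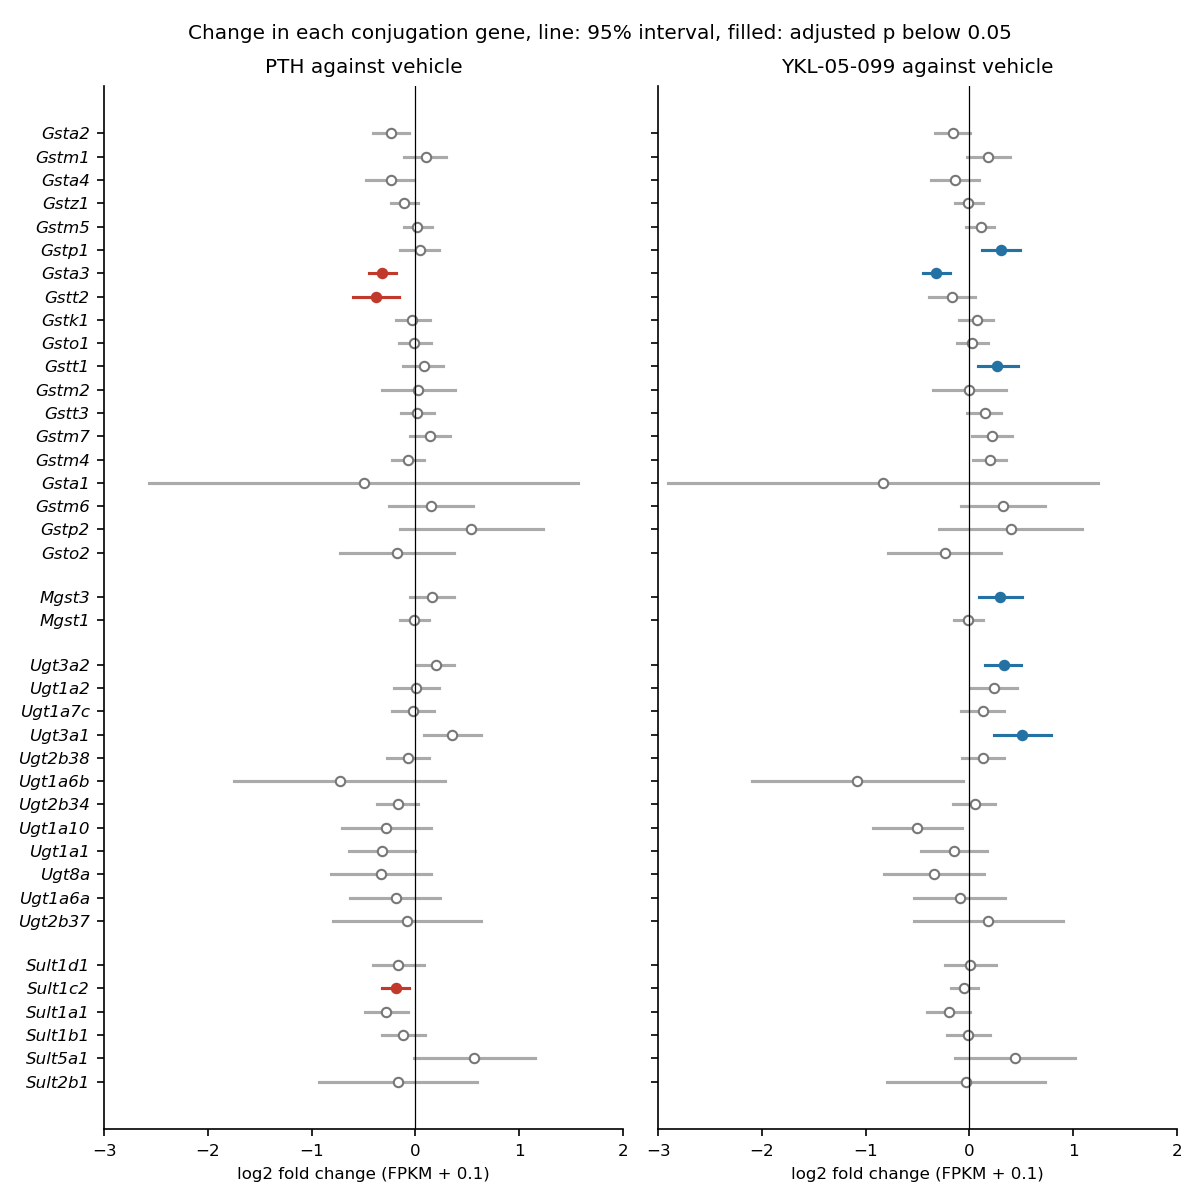
Log2 fold change of each conjugation gene on log2(FPKM + 0.1), with its 95% interval, for PTH (left) and YKL-05-099 (right) against vehicle; filled points passed an adjusted p of 0.05. Only *Gsta3* is filled on both sides, at -0.32 in each.

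*Gsta3* fell with both agents. It encodes an alpha-class GST that in mice conjugates the epoxide of aflatoxin B1 and lies on chromosome 1 (21240565 to 21265575, GRCm38), apart from the alpha-class cluster on chromosome 9. Its level ran from 99.4 to 131 FPKM with vehicle (median 113), from 79.96 to 100.5 with PTH (median 87.7) and from 80.6 to 103 with YKL-05-099 (median 89.5). Of the 16 treated libraries, 13 lay below the lowest vehicle library. On the log2 scale the change was -0.32 (SE 0.07) with PTH and -0.32 (SE 0.07) with YKL-05-099 (limma adjusted p = 0.00117 and 0.0018). The agents share the vehicle libraries, and against each other *Gsta3* differed by a log2 of 0 (95% interval -0.14 to 0.13).

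The other alpha-class genes did not pass the test. *Gsta2* ran from 1003 to 1224 FPKM with vehicle (median 1051), 815 to 1116 with PTH (median 895) and 780 to 1248 with YKL-05-099 (median 949). Of the PTH libraries, 7 of 8 lay below every vehicle library, and the change of -0.24 (log2, SE 0.08) missed the threshold at adjusted p = 0.0509. It passed without any 1 of PTH 1, 2 or 3 or YKL-05-099 1 or 6 (-0.28 to -0.24, adjusted p = 0.0168 to 0.0465). *Gsta4* was below the vehicle mean in 8 of 8 PTH libraries, at -0.24 (95% interval -0.48 to -0.01, adjusted p = 0.15). *Gsta1*, whose sequence is mostly shared with its neighbours, was listed at 0 in 2 vehicle, 2 PTH and 3 YKL-05-099 libraries and reached 5.75 FPKM, so its interval was too wide to read (-2.57 to 1.57 with PTH).

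The 250 bases before the start of RefSeq's *Gsta3* transcript, with those of *Ugt3a1* and *Gstp1*, are shown because these 3 genes carried the calls that no alternative processing ended and had a RefSeq promoter window (*Ugt3a2* had none). Capitals mark a match to TGACNNNGC, the core of the antioxidant response element, in *Gsta3*, and to GCGTG, the core of the xenobiotic response element, in *Gstp1*. Positions are GRCm38. Each window is set by the start of 1 RefSeq transcript, so those of *Gsta3* and *Ugt3a1* end inside the gene limits given here, and other transcripts of these genes start elsewhere.
Gsta3 (chr1:21240335-21240584, plus strand): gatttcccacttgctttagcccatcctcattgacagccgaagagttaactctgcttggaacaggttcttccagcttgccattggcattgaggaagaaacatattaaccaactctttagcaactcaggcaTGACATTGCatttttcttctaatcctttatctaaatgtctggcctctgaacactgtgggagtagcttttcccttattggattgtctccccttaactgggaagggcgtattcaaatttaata
Ugt3a1 (chr15:9279579-9279828, plus strand): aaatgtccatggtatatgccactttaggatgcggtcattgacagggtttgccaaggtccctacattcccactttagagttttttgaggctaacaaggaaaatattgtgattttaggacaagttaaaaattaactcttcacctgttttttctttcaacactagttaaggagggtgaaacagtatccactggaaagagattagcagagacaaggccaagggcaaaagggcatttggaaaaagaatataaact
Gstp1 (chr19:4037913-4038162, minus strand): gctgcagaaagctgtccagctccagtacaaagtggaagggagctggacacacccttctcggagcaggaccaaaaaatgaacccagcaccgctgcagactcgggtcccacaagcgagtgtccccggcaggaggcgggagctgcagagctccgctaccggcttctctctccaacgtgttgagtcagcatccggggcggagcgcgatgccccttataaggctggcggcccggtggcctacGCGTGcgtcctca
The match in *Gsta3* runs from 121 to 113 bases before that transcript start. Over windows from 250 bases before to 50 after each start, on both strands, TGACNNNGC was in 4 of 46 member windows (8.7%) and in 12.4% of all 32851 windows. GCGTG was in 26.1% of member windows and 32.4% of all, and TGACG, the short form of the cAMP response element, in 10.9% and 20.8%. The full cAMP response element TGACGTCA, which contains TGACG, was in 0 member windows and 1.79% of all. These are letter matches and say nothing of binding.

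The theta-class genes, which act on small halogenated compounds and lie side by side on chromosome 10, were not called together in any comparison with vehicle. Across the 24 libraries, after each group's mean was removed, *Gstt2* and *Gstt1* had a correlation of 0.82, given as a description. *Gstt2* was called lower with PTH, *Gstt1* was called higher with YKL-05-099, and *Gstt3* passed in neither. *Gstt2* was at 96.6 to 116 FPKM with vehicle (median 106), 70.5 to 132 with PTH (median 77.8) and 69.6 to 128 with YKL-05-099 (median 94.4). In the PTH group 7 of 8 libraries lay at 70.5 to 80.8 FPKM, below every vehicle library, and PTH replicate 4 alone was above all of them at 132. The change was -0.38 on the log2 scale with PTH (SE 0.11, limma adjusted p = 0.0155) and -0.17 (SE 0.11, adjusted p = 0.282) with YKL-05-099. Median-ratio scaling (adjusted p = 0.0501) and leaving out the 4 libraries with the most urothelial marker RNA, vehicle 7, PTH 1, PTH 5 and YKL-05-099 2 (adjusted p = 0.082), ended the PTH call at a log2 fold change of -0.33 each.

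*Gstt1* showed the same high library. It ran from 61.3 to 74.4 FPKM with vehicle (median 67.2), 55.2 to 108 with PTH (median 69.2, replicate 4 the highest) and 68.1 to 94.7 with YKL-05-099 (median 80.6). All 8 YKL-05-099 libraries were above the vehicle mean and 6 above every vehicle library. The log2 fold change of 0.27 (SE 0.10) passed narrowly (adjusted p = 0.0496), and leaving out any 1 of 18 libraries (vehicle 2 to 8, PTH 2, 5, 6, 7 or 8, YKL-05-099 2, 4, 5, 6, 7 or 8) ended the call, at adjusted p of 0.0522 to 0.0976 and log2 fold changes of 0.24 to 0.29. Without any filter on low values the adjusted p was 0.0673, and without the 4 libraries richest in urothelial RNA it was 0.0962.

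*Gstp1*, the pi-class GST, rose with YKL-05-099. It was at 111 to 150 FPKM with vehicle (median 132), 108 to 172 with PTH (median 133) and 139 to 215 with YKL-05-099 (median 162). Every YKL-05-099 library was above the vehicle mean and 6 of 8 above the highest vehicle library, with replicate 6 the highest of all. This was a rise of 0.31 on the log2 scale (SE 0.09, limma adjusted p = 0.0217), against 0.04 (SE 0.09, adjusted p = 0.816) with PTH. No alternative ended the YKL-05-099 call, but the adjusted p reached 0.0499 among them. Its near copy *Gstp2* was at 0.48 to 3.69 FPKM over all libraries, far below *Gstp1*.

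Of the mu class, *Gstm1*, *Gstm2*, *Gstm4*, *Gstm5*, *Gstm6* and *Gstm7* passed in neither comparison with vehicle. Their log2 fold changes lay between -0.07 and 0.15 with PTH and between 0 and 0.32 with YKL-05-099. *Gstz1*, *Gsto1*, which reduces dehydroascorbate, *Gsto2* and the mitochondrial and peroxisomal *Gstk1* did not pass either. For *Gsto1* the 95% interval was -0.16 to 0.15 with PTH and -0.12 to 0.18 with YKL-05-099, and for *Gstz1* -0.24 to 0.03 and -0.14 to 0.13.

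*Mgst3*, a membrane-bound enzyme that can join glutathione to leukotriene A4, was called higher with YKL-05-099. Its range was 72.7 to 104 FPKM with vehicle (median 89.2), 77.4 to 149 with PTH (median 94.3) and 94.1 to 130 with YKL-05-099 (median 105). All YKL-05-099 libraries were above the vehicle mean and 5 above every vehicle library, and PTH replicate 4 was again the highest of its group. The change was 0.30 on the log2 scale (SE 0.10, adjusted p = 0.0421). It missed the threshold without the filter on low values (adjusted p = 0.0586), without the 4 urothelium-rich libraries (adjusted p = 0.0987) and without any 1 of vehicle 2, 4, 5, 7 or 8 or YKL-05-099 2, 4, 5, 6 or 8 (adjusted p = 0.0505 to 0.0875). *Mgst1* showed no such difference (log2 fold change -0.01, 95% interval -0.15 to 0.13, with each agent).

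**Figure D3:**
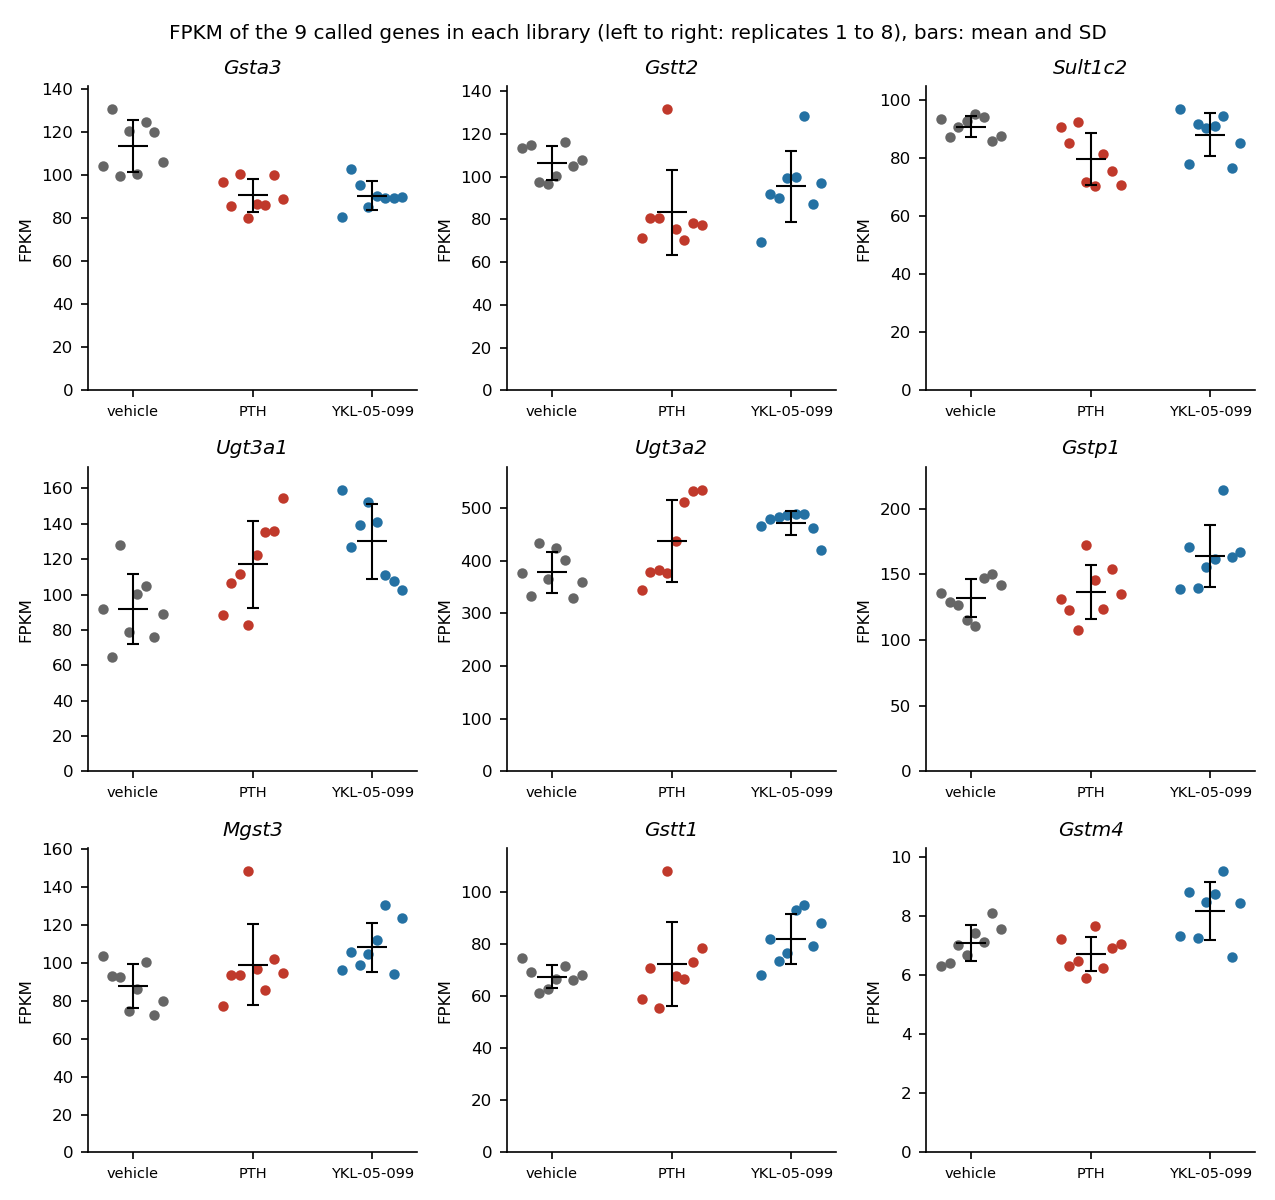
FPKM of the 9 genes called in any comparison, in each library (points, replicates 1 to 8 from left to right within a group), with the group mean and SD. *Gsta3* is lower in both treated groups, *Ugt3a1*, *Ugt3a2* and *Gstp1* are higher with YKL-05-099, and PTH replicate 4 is the highest point of its group for *Gstt2* (132), *Gstt1* (108) and *Mgst3* (149).

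The UGT3A pair gave the largest change among the calls. *Ugt3a1* and *Ugt3a2* are neighbours on chromosome 15 (9279822 to 9315038 and 9335551 to 9370955). *Ugt3a1* was at 64.7 to 128 FPKM with vehicle (median 90.5), 83.1 to 154 with PTH (median 117) and 103 to 159 with YKL-05-099 (median 133). Every YKL-05-099 library exceeded the vehicle mean, though only 4 of 8 exceeded every vehicle library. Its log2 fold change was 0.51 (SE 0.13, adjusted p = 0.00948) with YKL-05-099 and 0.35 (SE 0.13, adjusted p = 0.0698) with PTH. The PTH value passed without vehicle replicate 3 (0.43, adjusted p = 0.0257), PTH replicate 1 (0.41, adjusted p = 0.0339) or PTH replicate 4 (0.42, adjusted p = 0.0273).

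*Ugt3a2* was at 330 to 434 FPKM with vehicle (median 371), 345 to 535 with PTH (median 410) and 421 to 489 with YKL-05-099 (median 481). In the YKL-05-099 group 7 of 8 libraries lay between 463 and 489, above every vehicle library, and replicate 8 was the low one at 421. Its log2 fold change was 0.33 (SE 0.09, adjusted p = 0.01) with YKL-05-099 and 0.20 (SE 0.09, adjusted p = 0.115) with PTH, and the PTH value passed without PTH replicate 1 (0.24, adjusted p = 0.0376). Between the agents, the difference was 0.13 for *Ugt3a2* (95% interval -0.05 to 0.30) and 0.16 for *Ugt3a1* (95% interval -0.11 to 0.44), so neither gene was shown to differ between them.

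The PTH libraries were uneven for these genes. *Ugt3a2* was at 345, 379, 383 and 377 FPKM in PTH replicates 1 to 4 and at 437, 512, 532 and 535 in replicates 5 to 8, and *Ugt3a1* at 88.6, 107, 112 and 83.1 against 122, 135, 136 and 154. *Ugt1a6b* went the other way, at 46.1, 49.1, 71.1 and 67.7 FPKM in replicates 1 to 4 and at 13.1, 11.04, 6.36 and 9.26 in replicates 5 to 8. The length score described later also separated these libraries. It was -0.095, 0.185, 0.116 and 0.479 in PTH replicates 1 to 4, and -0.3, -0.305, -0.302 and -0.123 in replicates 5 to 8. Whether the 2 splits have a common source was not tested. No label names a batch, and these libraries were not treated as 2 groups in any test. Over the 24 libraries, after each group's mean was removed, *Ugt3a1* and *Ugt3a2* had a correlation of 0.81, given as a description since the points share library depth and tissue make-up.

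Among the UGT1A genes, none passed in either comparison. *Ugt1a2* was at 226 to 373 FPKM with vehicle (median 333), 256.3 to 392.1 with PTH (median 326) and 327 to 452 with YKL-05-099 (median 360). It was above the vehicle mean in 8 of 8 YKL-05-099 libraries, at a log2 fold change of 0.24 (95% interval 0.02 to 0.46, adjusted p = 0.115). *Ugt1a6b*, of the phenol-conjugating UGT1A6 type, was the most variable member of its family above 10 FPKM, with a range of 17.0 to 83.4 FPKM among vehicle libraries alone. Its log2 fold change was -0.73 (SE 0.50) with PTH and -1.08 (SE 0.50, adjusted p = 0.132) with YKL-05-099. The bilirubin enzyme *Ugt1a1* was low, at 6.80 ± 1.66 FPKM with vehicle, 5.51 ± 1.64 with PTH and 6.06 ± 1.01 with YKL-05-099.

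Because the UGT1A genes share exons, their sum is less exposed to how fragments were divided. The 6 genes added up to 412 to 582 FPKM with vehicle, 415 to 548 with PTH and 461 to 641 with YKL-05-099, and the groups overlapped. *Ugt2b38*, *Ugt2b34* and *Ugt2b37* of the steroid-conjugating UGT2B subfamily and *Ugt8a*, the ceramide galactosyltransferase of myelin, passed in neither comparison.

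Summed, the 12 UGT members stood higher with YKL-05-099, though 5 of the 12 had a log2 fold change below 0. Their sum was 964 to 1147 FPKM with vehicle (median 1095), 1001 to 1324 with PTH (median 1098) and 1195 to 1372 with YKL-05-099 (median 1241), so the YKL-05-099 and vehicle libraries did not overlap. After median-ratio scaling they did not overlap either (1164 to 1453 against 914 to 1127). The UGT3A pair accounted for most of the difference in means (470 ± 57.5 with vehicle and 602 ± 38.1 with YKL-05-099), while the other 10 members were at 615 ± 49.5 and 662 ± 69.0 FPKM. The sums of the other families overlapped between vehicle and YKL-05-099. They were 2401 to 2928 and 2147 to 3108 FPKM for GSTs, 138 to 175 and 152 to 205 for MGSTs, and 470 to 805 and 563 to 718 for SULTs. No test was made of these sums.

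Summed markers of the first proximal tubule segments were also higher with YKL-05-099, and no link between them and the UGT sum was measured. The 6 S1/S2 markers (*Slc5a2*, *Slc5a12*, *Slc34a1*, *Gatm*, *Lrp2*, *Cubn*) added up to 1952 to 2307 FPKM with vehicle, 1866 to 2659 with PTH and 2497 to 3434 with YKL-05-099. Only 2 of 6, *Slc34a1* and *Gatm*, passed the test as higher with YKL-05-099, and the median log2 fold change of the 6 was 0.26. The 6 S3 markers added up to 175 to 277 FPKM with vehicle and 222 to 286 with YKL-05-099, and the 1 of 6 called higher, *Slc22a13* (0.28, adjusted p = 0.0493), lost its call in 20 of 36 alternatives, 15 of them without 1 library, any of vehicle 2, 4 or 7, PTH 2, 5, 6, 7 or 8 or YKL-05-099 1 to 7 (adjusted p = 0.0525 to 0.112). Of 5 leukocyte markers, *Ptprc*, *Cd52* and *Coro1a* were called lower with YKL-05-099 (-0.75, -0.79 and -0.74) while *Laptm5* and *Cd68* were at 0.03 and 0.14, and the 5 added up to 21.0 to 31.8 FPKM with vehicle and 12.4 to 22.0 with YKL-05-099. Of 5 endothelial markers *Flt1* and *Kdr* were called lower, *Kdr* losing its call in 25 of 36 alternatives and *Flt1* in 5. Without 1 library the endothelial count was 0 to 2: *Flt1* was lost without vehicle 7 or 8 or YKL-05-099 5 or 6, and *Kdr* without any of 19 libraries, all but vehicle 1, PTH 2, PTH 4, YKL-05-099 1 and YKL-05-099 3 (adjusted p = 0.0504 to 0.105). The part of any of these in the UGT or GST values was not tested.

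**Figure D4:**
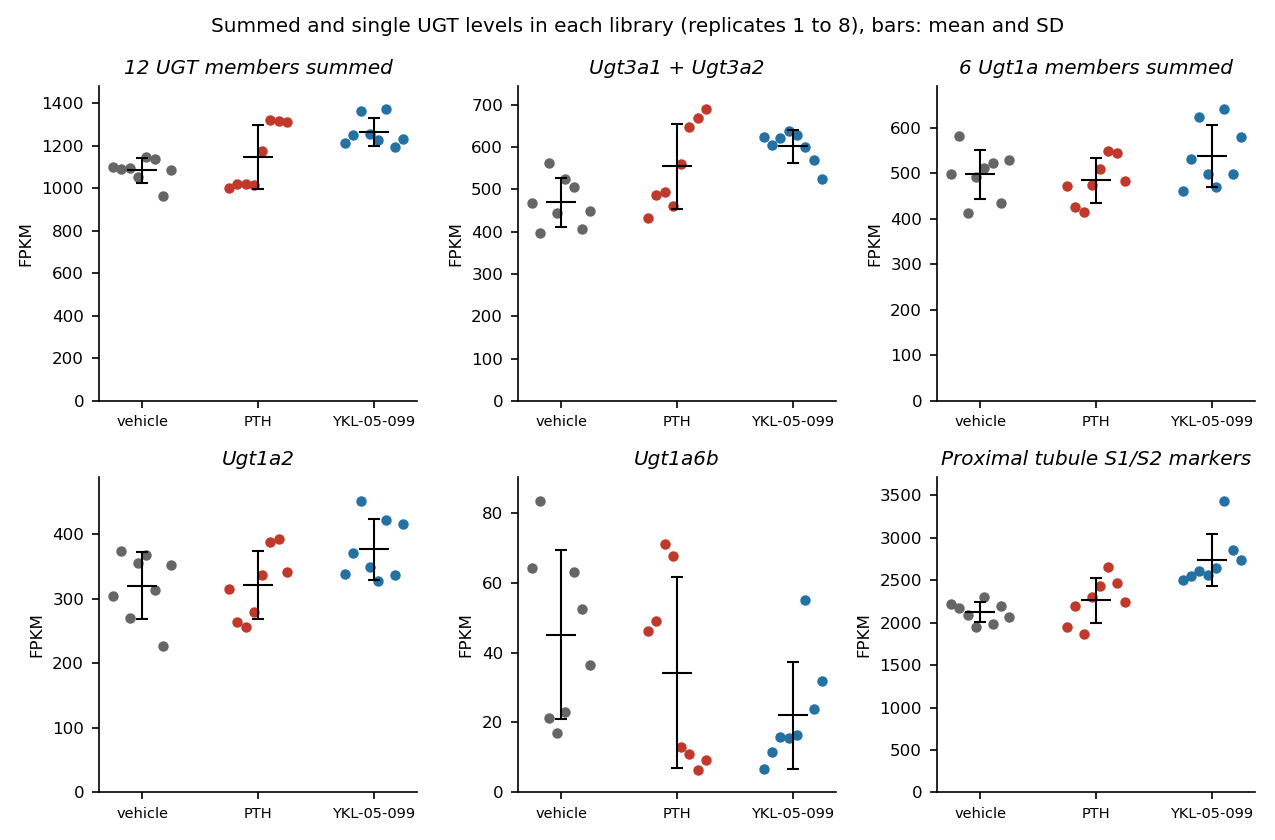
FPKM in each library of the 12 UGT members summed, the UGT3A pair, the 6 UGT1A members summed, *Ugt1a2*, *Ugt1a6b* and the 6 proximal tubule S1/S2 markers summed (points, replicates 1 to 8 from left to right), with group mean and SD. The UGT sum with YKL-05-099 (1195 to 1372) lies above all vehicle libraries (964 to 1147), and *Ugt1a6b* spreads widely in every group.

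Of the sulfotransferases, *Sult1c2* alone passed, lower with PTH. It had the tightest vehicle values of any member, 85.66 to 94.99 FPKM (median 91.8), against 70.5 to 92.3 with PTH (median 78.5) and 76.5 to 97.0 with YKL-05-099 (median 90.8). In the PTH group 6 of 8 libraries lay below every vehicle library. The difference was -0.19 on the log2 scale (SE 0.06, adjusted p = 0.0336) with PTH and -0.05 (SE 0.06, adjusted p = 0.643) with YKL-05-099. The PTH call was lost after median-ratio scaling (-0.15, adjusted p = 0.119) or quantile normalization (-0.17, adjusted p = 0.0569), and without any 1 of vehicle 1, 4, 5 or 6 or PTH 4, 5, 7 or 8 (-0.19 to -0.17, adjusted p = 0.0552 to 0.076). It was also lost without PTH 4 and YKL-05-099 1 together, the libraries at the extremes of the length score described later (adjusted p = 0.053).

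*Sult1a1* came close with PTH. It was at 29.1 to 44.5 FPKM with vehicle (median 34.4) and 23.5 to 37.7 with PTH (median 26.6), with 5 of 8 PTH libraries below every vehicle library. The change of -0.28 (log2, SE 0.10, adjusted p = 0.057) passed without any 1 of vehicle 7, PTH 2, 3 or 4 or YKL-05-099 1 or 8 (-0.34 to -0.28, adjusted p = 0.0171 to 0.0467). *Sult1d1* was at 351 to 675 FPKM with vehicle and 347 to 600 with PTH, a spread that left its log2 fold change between -0.41 and 0.08 (95% interval). *Sult1b1*, *Sult5a1* and *Sult2b1*, which sulfates cholesterol, were all below 5 FPKM and did not pass, except that *Sult5a1* was called higher with PTH without PTH replicate 6 (0.76, adjusted p = 0.0463).

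Set against each other, the agents differed in 1 member. YKL-05-099 against PTH gave 1 member higher and 0 lower, where 2.84% of all genes were higher and 3.58% lower. At an unadjusted p below 0.05 in limma, 6 of 39 members were higher and 0 lower, against 2878 of all 13991 genes in either direction. The called gene was *Gstm4*, at 5.90 to 7.64 FPKM with PTH (median 6.69) and 6.61 to 9.53 with YKL-05-099 (median 8.46), with vehicle at 6.31 to 8.08 (median 7.07). Against vehicle it passed with YKL-05-099 only in some alternatives, such as without YKL-05-099 replicate 7 (0.24, adjusted p = 0.0314). Of the YKL-05-099 libraries 5 of 8 were above every PTH library, and the log2 difference was 0.27 (SE 0.08, adjusted p = 0.0297). It was lost in a fit over those 2 groups alone (adjusted p = 0.0748), with library weights (0.23, adjusted p = 0.0798) and without any 1 of PTH 2 or 3 or YKL-05-099 2, 4, 5, 6 or 8 (0.24 to 0.26, adjusted p = 0.052 to 0.0721). Without PTH replicate 4, *Gstp1*, *Gstt1* and *Gstt2* were also called higher with YKL-05-099 than with PTH (0.31, 0.28 and 0.31, adjusted p = 0.0284, 0.021 and 0.0233), and without YKL-05-099 replicate 1 *Gstp1* was (0.30, adjusted p = 0.0481).

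Libraries differed in the balance of short and long transcripts, and several members followed it. A length score was taken for each library as the median centred log2 level of 965 genes with transcripts under 1000 bases minus that of 2854 genes over 4000 bases, members left out. It ran from -0.08 to 0.21 with vehicle (median 0.06), from -0.30 to 0.48 with PTH (median -0.11) and from -0.37 to 0.25 with YKL-05-099 (median -0.03), with PTH replicate 4 the highest and YKL-05-099 replicate 1 the lowest. After removing group means, the correlation with this score over 24 libraries was 0.84 for *Gstt2*, 0.83 for *Gstk1*, 0.79 for *Ugt1a6b*, 0.68 for *Mgst3* and 0.60 for *Gstt1*. It was 0.02 for *Gsta3*, 0.09 for *Sult1c2* and 0.33 for *Gstp1*, and it was negative for *Ugt3a2* (-0.45) and *Ugt3a1* (-0.54). Over 13952 other genes the middle 90% of such correlations ran from -0.78 to 0.68, with a median of -0.03. These are descriptions over libraries that share tissue and handling.

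With the score as a covariate, the calls with vehicle as reference held and 1 was added. *Gsta3* stayed at -0.32 with each agent (adjusted p = 0.00121 and 0.00157). *Gstt2* with PTH was at -0.28 (adjusted p = 0.00317), and with YKL-05-099 *Ugt3a1* was at 0.45 (adjusted p = 0.00879), *Ugt3a2* at 0.29 (adjusted p = 0.01), *Gstp1* at 0.33 (adjusted p = 0.00937), *Mgst3* at 0.37 (adjusted p = 0.00243) and *Gstt1* at 0.33 (adjusted p = 0.00588). *Mgst3* was then also called higher with PTH, at 0.24 (adjusted p = 0.0379).

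**Figure D5:**
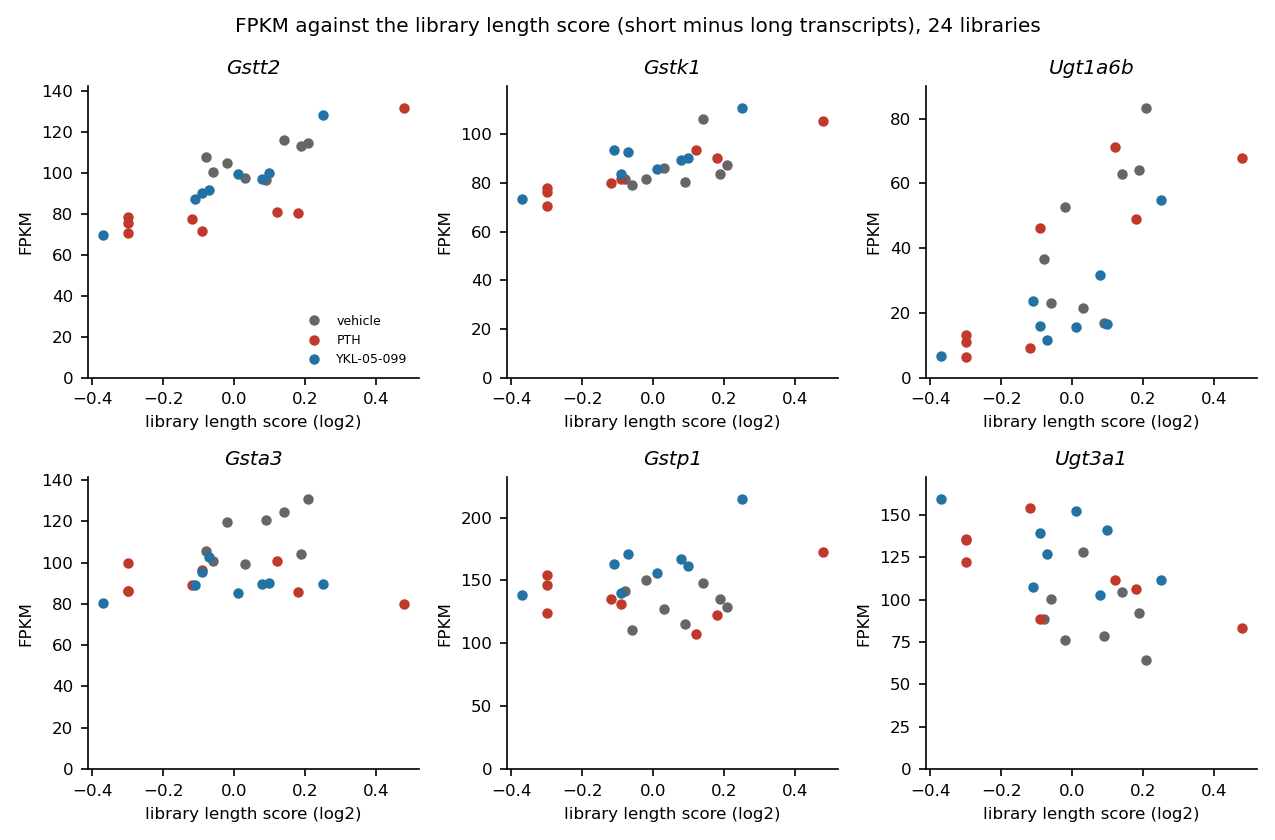
FPKM of 6 conjugation genes against the length score of the library (log2, short minus long transcripts), 24 libraries coloured by group. *Gstt2*, *Gstk1* and *Ugt1a6b* rise with the score (correlations of 0.84, 0.83 and 0.79 within groups), *Gsta3* does not (0.02), and *Ugt3a1* falls (-0.54).

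Genes that supply glutathione or take it apart changed in both directions, and some of the calls in this and the next lists rested on single libraries. Of 17 tested, 3 rose and 3 fell with PTH (median log2 fold change 0.05), and 2 rose and 2 fell with YKL-05-099 (median 0.06), where the median of all genes was -0.05 in both. Of all genes, 6.00% rose and 11.1% fell with PTH, and 6.26% rose and 11.5% fell with YKL-05-099. The counts in this and the next lists stand beside those shares, and no list was tested as a set. *Gsr*, which regenerates reduced glutathione, rose with PTH from 37.5 ± 2.96 to 45.5 ± 4.47 FPKM (limma adjusted p = 0.00331). *Ggt1*, the brush border enzyme that starts glutathione breakdown, rose from 240 ± 19.8 to 283 ± 31.6 FPKM with PTH (adjusted p = 0.0185) and to 283 ± 25.2 with YKL-05-099 (adjusted p = 0.0189). The peptidase *Anpep*, which acts further down that path, rose with YKL-05-099 from 54.9 ± 4.20 to 71.3 ± 4.96 FPKM (adjusted p = 0.00224), and *Ggct*, which releases 5-oxoproline, fell from 41.0 ± 4.21 to 30.5 ± 4.44 (adjusted p = 0.0131). With PTH, *Oplah*, which opens 5-oxoproline, and the conjugate exporter *Abcc2* fell by 0.24 and 0.26 on the log2 scale (limma adjusted p = 0.0156 and 0.0162). Median-ratio scaling ended both calls (adjusted p up to 0.0766 and 0.0641 over the alternatives). Of the PTH calls 2 higher and 0 lower held in all 36 alternatives, and of those with YKL-05-099 2 higher and 1 lower. *Anpep* with PTH was lost without any 1 of vehicle 2 or 7 or PTH 5, 6 or 8 (adjusted p = 0.0538 to 0.064). *Chac2*, the remaining call lower with both agents, was lost with PTH without any 1 of vehicle 3 or 6 or PTH 4, 5, 6 or 7 (adjusted p = 0.0538 to 0.0609), and with YKL-05-099 without any 1 of vehicle 1 to 6, PTH 2 or YKL-05-099 1, 2, 4, 5, 6, 7 or 8 (adjusted p = 0.0522 to 0.0937). Neither *Gclc* nor *Gclm*, which together make the rate-setting enzyme of glutathione synthesis, passed with either agent.

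For glucuronidation, 1 of 8 supply and export genes rose and 1 fell with PTH (median log2 fold change -0.08), and 2 rose with YKL-05-099 (median 0). *Abcc3*, which exports glucuronides, rose from 12.8 ± 2.55 to 18.7 ± 3.11 FPKM with PTH (0.55 on the log2 scale, adjusted p = 0.0147). With YKL-05-099 it was at 17.8 ± 4.57 FPKM (0.45, adjusted p = 0.0449), a call that 17 of 36 alternatives ended (adjusted p up to 0.133), among them leaving out any 1 of vehicle 1, 2, 7 or 8, PTH 2 or YKL-05-099 1, 2, 3, 4, 5 or 7 (0.38 to 0.46, adjusted p = 0.0501 to 0.0957). *Slc35d1*, which carries UDP-glucuronate into the endoplasmic reticulum, rose with YKL-05-099 from 13.3 ± 1.18 to 15.6 ± 1.44 FPKM (adjusted p = 0.0194). That call was lost without the 4 urothelium-rich libraries (adjusted p = 0.0559). Its relative *Slc35d2* fell with PTH from 6.90 ± 0.663 to 5.31 ± 0.622 (adjusted p = 0.0048). *Ugdh*, which makes UDP-glucuronate, did not pass.

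For sulfation, 1 of 11 genes fell with PTH (median log2 fold change 0) and 2 rose with YKL-05-099 (median 0.12). The PAPS synthase *Papss2* rose with YKL-05-099 from 213 ± 15.7 to 268 ± 23.2 FPKM (0.33 on the log2 scale, adjusted p = 0.00406), while *Papss1* fell with PTH from 35.8 ± 2.49 to 30.7 ± 1.95 (-0.22, adjusted p = 0.00869). *Suox*, which turns sulfite into sulfate, was called higher with YKL-05-099 (0.20, adjusted p = 0.0395), and 13 of 36 alternatives ended that call, 11 of them by leaving out 1 library, any of vehicle 2, 5, 6, 7 or 8 or YKL-05-099 1, 2, 3, 6, 7 or 8 (adjusted p = 0.0506 to 0.0883). The sulfate transporter *Slc26a1* differed between the agents, at 25.01 ± 2.37 FPKM with PTH and 30.4 ± 2.75 with YKL-05-099 (adjusted p = 0.00818).

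Of 16 genes of the other conjugations, 3 fell with PTH (median log2 fold change -0.13), and 3 rose and 2 fell with YKL-05-099 (median 0.01). *Glyat*, which joins glycine to acyl groups, fell with PTH from 351 ± 22.1 to 276 ± 25.2 FPKM (-0.35, adjusted p = 2.6e-04). With YKL-05-099 it was at 305 ± 27.7 FPKM (-0.20, adjusted p = 0.0229), a call that both scaling alternatives ended (adjusted p up to 0.151), as did leaving out vehicle replicate 7 (adjusted p = 0.0507) or YKL-05-099 replicate 7 (adjusted p = 0.0517). Median-ratio scaling left *Glyat* alone of the 3 PTH calls: *Acsm5* was then at adjusted p = 0.134 and *Nat2* at 0.0895. *Acsm5* was also lost without PTH 2 or 8 (adjusted p = 0.0541 to 0.0623), and *Nat2*, lost in 21 of 36 alternatives, without any 1 of vehicle 1, 2, 3, 4, 6 or 8, PTH 1 to 6 or YKL-05-099 3 or 4 (adjusted p = 0.0517 to 0.0929). *Acy3*, the aminoacylase that acts on mercapturic acids, rose with YKL-05-099 from 350 ± 36.6 to 435 ± 32.0 FPKM (0.32, adjusted p = 0.0147), the only call of this list with YKL-05-099 that held in all 36 alternatives. *Acy1* was lost without any 1 of vehicle 2, 4 or 7 or YKL-05-099 3, 4, 5 or 6, and *Acsm1* without any 1 of vehicle 2, 3, 4, 5, 6 or 8 or YKL-05-099 1, 2, 5 or 7 (adjusted p up to 0.0712 and 0.0638). Of 11 tested genes that share the GST fold or the MAPEG family but not the symbols, 0 passed in limma with either agent, and at an unadjusted p below 0.05 there were 0 with PTH and 2, both lower, with YKL-05-099.

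Of 12 regulators of these genes, 1 rose and 3 fell with PTH (median log2 fold change -0.17) and 2 fell with YKL-05-099 (median -0.05), where 11.1% and 11.5% of all genes fell and 6.00% and 6.26% rose. The rise, of *Bach1*, was lost without PTH replicate 6 (adjusted p = 0.0509). *Ahr*, 1 of the 2 with YKL-05-099, was lost in 19 of 35 alternatives, both scaling alternatives among them (adjusted p = 0.0556 and 0.0569) and any 1 of vehicle 1, 2, 3, 4, 7 or 8, PTH 7 or 8 or YKL-05-099 2 to 8 left out (adjusted p = 0.0506 to 0.0988). *Nr1i2*, the pregnane X receptor, fell with PTH from 5.64 ± 0.675 to 3.38 ± 0.744 FPKM (-0.74, adjusted p = 2.3e-04), and *Ppara* from 30.3 ± 3.15 to 22.0 ± 3.77 (-0.47, adjusted p = 4.6e-04). *Keap1*, the inhibitor of NRF2, fell from 14.8 ± 0.988 to 12.4 ± 1.88 FPKM with PTH (adjusted p = 0.0134) and to 12.2 ± 0.537 with YKL-05-099 (adjusted p = 0.0105). *Ppara* differed between the agents (29.9 ± 2.52 FPKM with YKL-05-099, adjusted p = 0.00182), and so did *Nr1i2* (4.76 ± 0.964, adjusted p = 0.0232, a call lost in 5 of 36 alternatives, among them without PTH 8 or YKL-05-099 4, 5 or 6, at adjusted p = 0.0506 to 0.0575). Of 10 NRF2 targets outside the families, *Gclc* and *Gclm* again among them, *Hmox1* alone passed, lower with both agents (-1.73 and -2.40, adjusted p = 6.4e-04 and 4.2e-05), with vehicle libraries widely spread at 92.1 ± 65.7 FPKM.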

How the data were processed

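Whole-kidney RNA was sequenced on the BGISEQ platform in 24 libraries, 8 each for vehicle, PTH and YKL-05-099. The authors deposited 1 table of FPKM values, made with STAR 2.7.2b and RSEM 1.3.0 on mm10/GRCm38 according to the submitters' processing notes. Neither the annotation nor the strand setting is given in the sources used here, so reads from overlapping or antisense genes may be mixed. Each value is scaled to its own library's total. Of the value columns, 1 that equals PTH replicate 3 in all 19426 entries was not used. Entries matched RefSeq genes by identifier in 99.7% of cases, all 39 members included, and 25 symbols turned into dates were restored.

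Values were tested as log2(FPKM + 0.1), so fold changes of low genes are understated, for 13991 genes averaging 0.5 FPKM or more, in limma 3.58.1 (R 4.3.3), with variance following the mean level, 1 model over the 3 groups and Benjamini-Hochberg adjustment over all of them. The script was tested on simulated data. Depth was estimated from low values of transcripts of 1 known length, of which 79.4% to 88.1% per library lay within 0.2 of a whole fragment under the best-fitting depth; counts were not recovered, and no count model was fitted. Sequences are from RefSeq (GRCm38.p6; promoter windows for 35 of 39 members) and GENCODE transcripts of GRCm38, and member coordinates from RefSeq. Tables and plots were made with numpy 2.4.6, pandas 2.3.3 and matplotlib 3.10.9 in Python 3.11.15.

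The members, gene lists and tests were chosen with earlier results of these data known. Full values are given for members called with either agent, and levels for the 5 most abundant members of each family in vehicle. The plan was to name up to 4 called genes per list by smallest adjusted p. Some lists name more, to show how their calls held, and not always in that order. *Gstm4*, *Ugt1a6b*, *Gsta1*, the UGT sums, the near misses and the *Slc26a1*, *Ppara* and *Nr1i2* differences between agents were singled out after their values were seen. Alternatives covered pseudocounts, filters, scaling, library weights, a replicate block, fits of 2 groups and left-out libraries. Fits with the length score as a covariate and without its 2 extreme libraries were added after the data were seen; the latter replaced a fit without 3 libraries picked from the members' own values, which was dropped because it selected libraries by outcome.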

Additional observations from a re-analysis of the deposited data

Results flagged for a closer look

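In 23 genes and 69 groups of 8 libraries, 7 values stood apart from the rest of their group by a gap above the 95% critical value of Dixon's test, which chance gives in about 1 of 20 groups. PTH replicate 4, the library with the highest length score (0.48), gave 3 of them. It held 132 FPKM of *Gstt2* where the next PTH library held 80.8, 149 of *Mgst3* where the next held 102, and 108 of *Gstt1* where the next held 78.2.

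YKL-05-099 replicate 6, with a length score of 0.25, held 295 FPKM of *Gsta4* (next 216) and 215 of *Gstp1* (next 171), and was the highest of its group in 17 of 39 members (43.6%), against 1950 of 13952 other genes tested. YKL-05-099 replicate 1 was the lowest of its group in 17 members (43.6%, against 13.8% of other genes). YKL-05-099 replicate 8 stood low for *Ugt3a2*, at 421 FPKM against a next value of 463, and PTH replicate 5 stood high for *Gstm1*, at 447 against 343. What set these libraries apart was not tested beyond the values given.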

How the results depend on the processing

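The calls for *Gsta3* with both agents and for *Ugt3a1*, *Ugt3a2* and *Gstp1* with YKL-05-099 held in all 36 alternatives run, and no called value changed sign. The highest limma adjusted p among the alternatives was 0.00598 with PTH and 0.00516 with YKL-05-099 for *Gsta3*. With YKL-05-099 it was 0.0304 for *Ugt3a1*, 0.0293 for *Ugt3a2* and 0.0499, barely under the threshold, for *Gstp1*. Over all members and comparisons, 57 of 4191 alternative values lost a call and 40 gained one. Among called list genes, 316 of 4749 lost and 66 gained one. Only values called in the main fit could lose a call, and most of the 4191 and many of the 4749 were not called there. By member call, *Gstt2* with PTH was lost in 2 of 36 alternatives and *Sult1c2* with PTH in 11. With YKL-05-099, *Mgst3* was lost in 13 and *Gstt1* in 21, and *Gstm4* between the agents in 10. With library weights, 2 members rose (*Ugt3a1*, *Ugt3a2*) and 5 fell with PTH, and 0 differed between the agents. Median-ratio scaling left 1 member lower with PTH. Members higher with YKL-05-099 numbered 3 without the filter on low values and 3 without the 4 urothelium-rich libraries (*Gstp1*, *Ugt3a1* and *Ugt3a2* each time). The fit of 2 groups called 0 members higher with YKL-05-099 than with PTH. With the length score as a covariate 1 member (*Mgst3*) rose with PTH; without the 2 libraries at its extremes 1 (*Ugt3a1*) rose with PTH and 4 (*Gstm4*, *Gstp1*, *Gstt1*, *Gstt2*) were higher with YKL-05-099 than with PTH. The cause was not tested.

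Leaving out each library in turn gave 0 to 2 members higher and 2 to 5 lower with PTH, 3 to 5 higher and 1 lower with YKL-05-099, and 0 to 4 higher and 0 lower between the agents. The replicate block gave 3 members higher with YKL-05-099 and 0 between the agents: *Mgst3* (adjusted p = 0.0724), *Gstt1* (adjusted p = 0.0554) and *Gstm4* (adjusted p = 0.0525) lost their calls and the others held. Same-numbered libraries did not deviate together (median correlation -0.0301 for vehicle and PTH, 0.0335 for vehicle and YKL-05-099 and -0.0127 for PTH and YKL-05-099). In that order 0, 1 and 0 of 8 pairs were over 0.1, the highest 0.202, and 0, 1 and 0 libraries were closest to their own number. The numbers thus showed no sign of a pairing, though low correlations cannot exclude one in the design. At the median depth, 0.5 FPKM is few fragments for a short transcript, and members near that level were not resolved.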
